A study of Mus musculus with 12 samples.

Results

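The selective autophagy receptor p62 (gene Sqstm1) and the NRF2 antioxidant axis were followed as mRNA in lymph node cells of mice that carried floxed Atg12 alleles. The group held 10 genes named by symbol: Sqstm1, Nfe2l2, Keap1, Nqo1, Hmox1, Gclc, Gclm, Txnrd1, Srxn1 and Slc7a11. No cut on a measured value was used, but earlier results of these data were known when they were chosen. All 10 were found among the 32285 genes of the deposited feature lists.

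The study held 12 droplet libraries without replicates: each of the 12 combinations of genotype, treatment and cell fraction was 1 library. All mice were C57BL/6 animals of 7 to 10 weeks with ATG12 fl/fl alleles, and all received tamoxifen 5 times. They were either positive or negative for CDH5 CreER, a tamoxifen-activated Cre recombinase under the promoter of the endothelial cadherin gene Cdh5. Both genotypes were studied after acetone:olive oil vehicle, on day 3 after 4% oxazolone (a contact sensitiser) on the abdominal skin, and on day 7. Lymph nodes were split with CD45 beads into a CD45 fraction of immune cells and a CD45-depleted fraction of endothelial cells, called CD31 here as in the sample titles, before sorting. The number of mice behind a library is not given in the sources used here.

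ATG12 is part of the conjugation machinery that attaches ATG8 proteins to the growing autophagosome. p62 carries ubiquitinated cargo to that membrane, is itself degraded with it, and accumulates as a protein when autophagy stops. Accumulated p62 can bind KEAP1, the adaptor through which a CUL3 ubiquitin ligase removes NRF2 (gene Nfe2l2). NRF2 then enters the nucleus, pairs with small MAF proteins and binds antioxidant response elements at genes for glutathione synthesis, thioredoxin recycling and quinone detoxification. Sqstm1 is itself an NRF2 target, so the loop can be read at the mRNA level, whereas p62 protein, KEAP1 binding and nuclear NRF2 were not measured here. The comparison asked whether these mRNAs were higher in endothelial cells of libraries labelled Cre-positive, and whether leukocytes from the matching libraries differed.

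Of the 10 genes, 8 had at least 1 promoter window in the RefSeq table (build GRCm38.p6; 250 bases before to 50 after a transcript start). Hmox1 and Gclc had none. Both strands were searched for TGACNNNGC, the core of the antioxidant response element, and for TGAGTCA, the AP-1 site that shares part of it. These 8 genes had 10 windows, 3 of them of Txnrd1. The first motif was in 4 of the 10 windows (1 each of Nfe2l2, Srxn1, Gclm and Txnrd1) and in 12.4% of all 32851 windows. The second was in 1 of the 10 (Srxn1) and in 5.20% of all windows. The windows of 3 targets are shown, read 5′ to 3′ on the gene's strand with motif letters in capitals; a core on the opposite strand is read there in reverse complement.
Nqo1 (chr8:107403156-107403455, minus strand): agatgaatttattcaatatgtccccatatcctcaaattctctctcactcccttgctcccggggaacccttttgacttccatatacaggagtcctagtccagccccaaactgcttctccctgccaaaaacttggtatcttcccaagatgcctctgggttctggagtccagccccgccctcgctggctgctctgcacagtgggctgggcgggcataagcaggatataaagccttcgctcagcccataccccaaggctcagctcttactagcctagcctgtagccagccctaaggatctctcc
Srxn1 (chr2:152105274-152105573, plus strand): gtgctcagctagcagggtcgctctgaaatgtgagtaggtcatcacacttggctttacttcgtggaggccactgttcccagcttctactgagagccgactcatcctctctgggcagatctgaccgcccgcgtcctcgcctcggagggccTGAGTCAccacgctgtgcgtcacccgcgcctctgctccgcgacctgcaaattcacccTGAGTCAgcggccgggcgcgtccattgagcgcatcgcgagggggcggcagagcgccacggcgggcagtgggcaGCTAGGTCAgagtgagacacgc
Gclm (chr3:122245307-122245606, plus strand): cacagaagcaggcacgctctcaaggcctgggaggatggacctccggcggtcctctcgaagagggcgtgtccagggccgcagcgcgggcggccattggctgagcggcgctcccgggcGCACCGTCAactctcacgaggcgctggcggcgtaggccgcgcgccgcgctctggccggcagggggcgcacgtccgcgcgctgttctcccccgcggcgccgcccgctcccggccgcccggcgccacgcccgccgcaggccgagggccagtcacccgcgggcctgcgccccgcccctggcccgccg
Srxn1 held TGAGTCA starting 102 and 45 bases before the transcript start and the antioxidant core 29 bases after it. These matches did not overlap. The site 45 bases before the start is followed by gc, so it differs from the searched core only by G in place of C. Cores with that letter were not searched. Gclm held the core 134 bases before its start, and neither motif was found in the Nqo1 window. A match is a description of letters, not of a bound site.

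The libraries held 36724887 to 76186801 UMIs (unique molecular identifiers, each counting 1 captured mRNA molecule), and 5698 to 10553 cells were kept in each, with a median of 3433 to 6193.5 UMIs per cell. Any pair of libraries shared 6 to 28 cell barcodes, at most 0.384% of the smaller library. Cells were clustered without the 10 genes and named from marker genes. The blood endothelial-like class held arterial-, capillary-, venous- and HEV-like cells (HEV, the high endothelial venules through which lymphocytes enter the node) and its other clusters, 2938 to 5165 cells per library. Of those, 267 to 658 were HEV-like. Lymphatic endothelial-like cells numbered 485 to 1155. Values below are CPM, the UMIs of a gene set against all UMIs of its class in a library on the counts-per-million scale. The vehicle library labelled Cre-positive held almost no Xist RNA (0.468 CPM in blood endothelial-like cells), whereas the other CD31 libraries held RNA of both sexes. The CD45 vehicle library labelled Cre-positive likewise held 0.0 Xist CPM in T, B, myeloid and fibroblast-like cells. Sex and genotype therefore cannot be told apart in the vehicle pair of either fraction. The other CD31 pairs were mixed but uneven. Blood endothelial-like Xist was 398 in the Cre-negative and 278 in the Cre-positive library on day 3 and 361 and 277 on day 7, lower in the Cre-positive library of both pairs. In 2 classes Xist was lower in all 3 Cre-positive libraries than in all 3 Cre-negative ones: HEV-like cells (2.13, 210 and 208 against 222, 384 and 368) and lymphatic endothelial-like cells (0.182, 280 and 492 against 504, 804 and 643). Y-linked RNA did not mirror this on day 7. In blood endothelial-like cells it was 198 and 290 CPM at vehicle, 95.7 and 150 on day 3, but 120 and 90.3 on day 7. The day 7 pair was 95.7 and 93.4 in HEV-like and 130 and 109 in lymphatic endothelial-like cells. Xist alone therefore does not give the sex balance of that pair. The part of sex in the genotype differences was not tested beyond a fit on cells with a Y-linked UMI. Within a time point 1 library stood against 1, so intervals cover counting error only and no test was made. Genotype was tested over the 3 treatments with edgeR's quasi-likelihood test on summed counts (genotype plus treatment, 2 residual degrees of freedom, Benjamini-Hochberg adjustment over all genes, threshold 0.05).

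Atg12 counts did not fall with the Cre-positive label in blood, HEV- or lymphatic endothelial-like cells. In blood endothelial-like cells it was 52.5, 46.1 and 51.5 CPM in the Cre-negative vehicle, day 3 and day 7 libraries and 74.1, 59.9 and 64.1 in the Cre-positive ones. The reads come from the 3′ end of the transcript, which can remain after an internal exon is removed, so these counts do not check the deletion. A reporter transcript, mRFP, was listed for 4 CD31 libraries and had 313, 740 and 286 UMIs in cells of the Cre-positive vehicle, day 3 and day 7 libraries and 0 in those of the Cre-negative day 7 library. The labels do not say what it marks, and it does not measure the deletion.

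No member passed the test by genotype in any class. In blood endothelial-like cells all 10 members had enough UMIs to be tested and edgeR called 0. In that fit 1 had an unadjusted p below 0.05, DESeq2 also called 0, and 0.00684% of all 14627 genes were called. The members' median log2 difference (Cre-positive over Cre-negative) was 0.05, beside -0.01 for all genes. HEV-like cells gave 0 of 10 (0.0266% of genes called; 1 member unadjusted; DESeq2 0), with a median of 0.18 beside 0.01. Lymphatic endothelial-like cells gave 0 of 10 (0.00776%; 1 unadjusted; DESeq2 0), with a median of 0.21 beside -0.01. Over all genes the edgeR fits had 370 of 14627 at an unadjusted p below 0.05 in blood endothelial-like cells. They had 496 of 11271 in HEV-like and 328 of 12888 in lymphatic endothelial-like cells. On simulated counts the same fit recovered 93.8% of genes changed by log2 1 in blood endothelial-like cells and 23.9% of those changed by log2 0.5. The simulation gave all genes the same spread and no treatment effect, and it changed only well-counted genes. Its shares therefore need not hold for the members. In the measured libraries Ephx1, an NRF2 target outside the group, differed by 1.02 (SE 0.15) in that class without being called (edgeR adjusted p = 0.701). A fitted difference of about log2 1 was thus not always called in the measured libraries. Whether that of Ephx1 is a true change is not known.

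**Figure D1:**
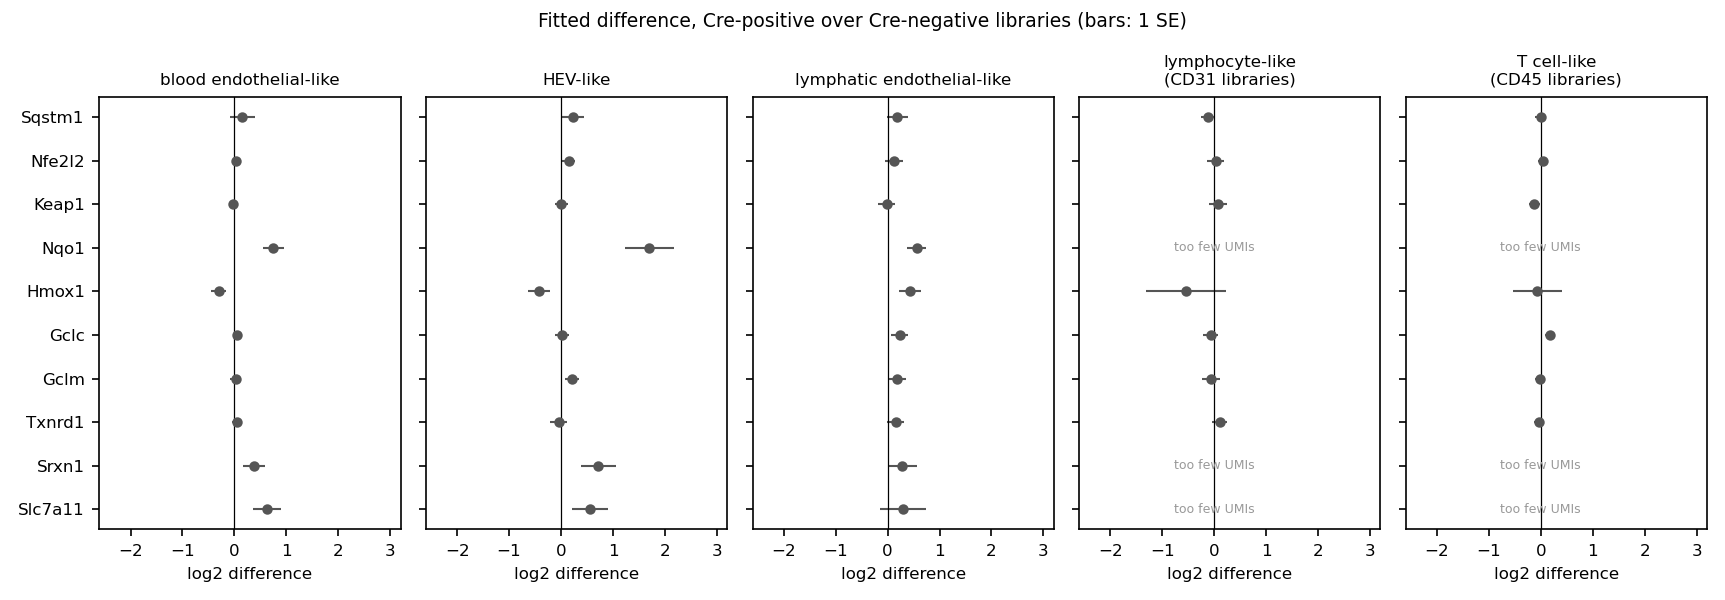
Fitted log2 difference between libraries labelled Cre-positive and Cre-negative (x axis, points with bars of 1 standard error) for each member (y axis) in 5 cell classes; members with too few UMIs to be tested are marked. Nqo1 lies farthest to the right in HEV-like cells at 1.70, and Sqstm1 lies within 1 standard error of 0 in the 3 endothelial classes.

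Sqstm1 (ENSMUSG00000015837, chr11:50199366-50210827, minus strand, GRCm38) encodes p62. In blood endothelial-like cells it was 156 in the Cre-negative and 228 in the Cre-positive vehicle library, 107 and 143 on day 3, and 214 and 149 on day 7. The Cre-positive library was thus the higher of the pair at vehicle and day 3 and the lower on day 7, and the groups overlapped. The log2 differences were 0.54 (95% counting interval 0.47 to 0.61), 0.42 (0.35 to 0.50) and -0.52 (-0.59 to -0.45). The 3 pairs therefore moved in opposite directions, each by more than counting error. The fitted genotype difference was 0.16 (SE 0.24, adjusted p = 1.00).

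HEV-like cells showed the same order of pairs for Sqstm1: 121 and 167 at vehicle, 79.7 and 131 on day 3, 150 and 113 on day 7, with a fitted difference of 0.22 (SE 0.22). In lymphatic endothelial-like cells the pairs were 166 and 167, 114 and 166, and 157 and 146, so only the day 3 pair differed by more than counting error, and the fitted difference was 0.19 (SE 0.20). Lymphocyte-like cells (T and B) of the same CD31 libraries ranged from 65.7 to 77.9, a narrower range than in any endothelial class, with a fitted difference of -0.12 (SE 0.14). Capillary-like cells had 145 and 157, 117 and 164, and 197 and 129 (0.03, SE 0.21). Free RNA of the CD31 libraries held 70.9 and 103, 50.1 and 63.2, and 97.1 and 88.2, below the blood endothelial-like level in each library and with the same direction in each pair.

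The Sqstm1 level of blood endothelial-like cells followed the share of 1 cluster. That cluster was led by immediate-early genes (Atf3, Fosb, Nr4a1, Egr1, Jun, Zfp36, Dusp1, Fos), which respond quickly to growth factors and stress. It held 8.05% of blood endothelial-like cells in the Cre-negative and 19.1% in the Cre-positive vehicle library, 2.27% and 6.45% on day 3, and 14.3% and 6.60% on day 7. The 6 libraries stood in the same order by this share as by Sqstm1. Pooled over libraries, Sqstm1 was 380 in the cluster (262 to 451) and 152 in the largest blood endothelial-like cluster (113 to 197), so it was higher in the former in every library.

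With the clusters set to the same mix in every library, blood endothelial-like Sqstm1 was 156 and 196, 120 and 146, and 200 and 153. The 3 pairs kept their directions with smaller gaps. Without the immediate-early cluster the fitted genotype difference was 0.07 (SE 0.18). The summed level of the 8 immediate-early genes also differed between libraries of the other endothelial classes, from 3437 to 8154 in HEV-like and from 1731 to 6274 in lymphatic endothelial-like cells. In lymphatic endothelial-like cells the pairs (Cre-negative, then Cre-positive) were 4492 and 6274 at vehicle, 1731 and 5424 on day 3, and 4902 and 3300 on day 7. Capillary-like cells had 3037 and 5382, 2537 and 5027, and 4698 and 2881. All of these pairs ran in the direction of Sqstm1, which hardly differed in the lymphatic vehicle pair. In HEV-like cells the day 3 pair (3437 and 3765) and the day 7 pair (7679 and 5192) did so too, and the vehicle pair (8154 and 7669) ran the other way. The 8 genes were chosen after the cluster's leading genes were seen, and their part in the Sqstm1 differences was not tested.

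**Figure D2:**
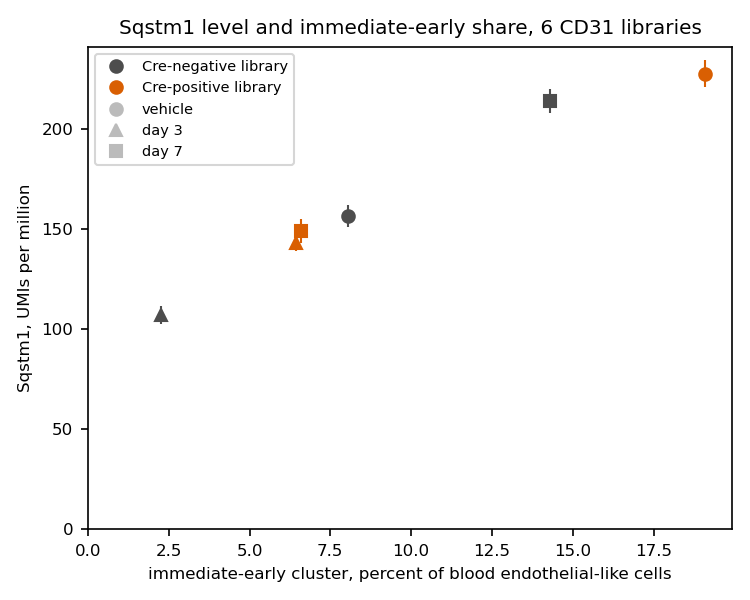
Sqstm1 in CPM (y axis) against the percent of blood endothelial-like cells in the immediate-early cluster (x axis) for the 6 CD31 libraries, grey for Cre-negative and orange for Cre-positive. The libraries run from 2.27% and 107 (Cre-negative day 3) to 19.1% and 228 (Cre-positive vehicle) in the same order on both axes.

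The regulators themselves hardly differed. Nfe2l2 (chr2:75675513-75704641, minus strand), which encodes NRF2, ranged from 115 to 130 over the 6 libraries in blood endothelial-like cells, with a fitted difference of 0.03 (SE 0.08). Keap1 (chr9:21229730-21239361, minus strand), which encodes the NRF2 adaptor, ranged from 42.3 to 50.4 with a difference of -0.02 (SE 0.08). Both ranges were narrow beside that of Sqstm1. NRF2 is controlled mainly by degradation, so mRNA of these genes does not report its activity.

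Nqo1 (ENSMUSG00000003849, chr8:107388225-107403206, minus strand), the quinone reductase often used as the readout of NRF2, was the member with the lowest unadjusted p by genotype in HEV-like cells. In HEV-like cells it was 0.608, 1.20 and 1.90 CPM in the Cre-negative vehicle, day 3 and day 7 libraries and 3.95, 5.79 and 3.41 in the Cre-positive ones. All 3 Cre-positive libraries stood above all 3 Cre-negative ones, but on few molecules: 2, 6 and 14 UMIs against 13, 31 and 10. The fitted log2 difference was 1.70 (SE 0.47, unadjusted p = 0.0068, adjusted p = 0.751). Over 13 alternative settings it stayed between 1.37 and 2.40 and passed the threshold in 1, without a filter on low counts (adjusted p 0.0405 to 1.00).

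In blood endothelial-like cells Nqo1 was 2.26, 3.13 and 2.21 in the Cre-negative and 4.42, 4.06 and 4.16 in the Cre-positive libraries. The groups again did not overlap, and the fitted difference was 0.75 (SE 0.20, unadjusted p = 0.012, adjusted p = 1.00). Lymphatic endothelial-like cells held more Nqo1, 21.5, 21.9 and 15.5 against 24.4, 34.2 and 25.8, with a difference of 0.56 (SE 0.18, unadjusted p = 0.013, adjusted p = 1.00). Capillary-like cells, which overlapped (4.15 to 4.74 and 3.51 to 7.25), had a difference of 0.24 (SE 0.32).

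Complete separation of the genotypes, with every Cre-positive library on top, was seen for 1 of 10 members in blood endothelial-like cells (Nqo1; 1.79% of all genes tested), 2 of 10 in HEV-like cells (Nqo1 and Srxn1; 4.36%) and 1 of 10 in lymphatic endothelial-like cells (Nqo1; 2.51%). It was not limited to endothelium. Fibroblast-like cells of the CD45 libraries gave 2 of 10 (Nqo1 and Srxn1; 6.93% of genes), T cell-like cells 1 of 7 tested (Gclc; 13.7%) and myeloid-like cells 1 of 8 tested (Nfe2l2; 10.2%). The T cell- and myeloid-like shares were near those of all genes, so they are no result about these members. Lymphocyte-like cells of the CD31 libraries gave 0 of 7 tested (1.77%), while Srxn1, which had too few UMIs there to be tested, also separated.

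In the fibroblast-like cells Nqo1 was 2.51, 2.41 and 1.35 in the Cre-negative and 3.80, 3.24 and 3.34 in the Cre-positive libraries (0.69, SE 0.41, adjusted p = 0.624). Srxn1 was 15.4, 15.9 and 13.5 against 22.6, 16.2 and 18.6 (0.36, SE 0.20, adjusted p = 0.603). The direction was that of the HEV-like cells. Free RNA of the CD45 libraries held 0.785, 1.52 and 1.20 against 1.22, 3.68 and 3.06 Nqo1 CPM, from 1 to 10 UMIs, and was higher in the Cre-positive library of each pair. For Srxn1 it held 5.49, 1.14 and 1.20 against 4.06, 3.31 and 8.40, with no common direction, and its part was not tested. Whether the difference was larger in endothelial than in fibroblast-like cells was not tested.

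Free RNA in the droplets also carried Nqo1. Barcodes of 10 to 100 UMIs, taken as free RNA, held 6.15, 2.32 and 9.66 Nqo1 CPM in the Cre-negative CD31 libraries and 8.39, 7.66 and 11.9 in the Cre-positive ones. At each time point the Cre-positive library had the higher free RNA level too. The HEV-like level was under the free RNA level of its own library in all 6 libraries and the blood endothelial-like level in 5 of 6. The lymphatic level was above it in every library. Lymphocyte-like cells of the CD31 libraries, which served as a class with little Nqo1, held 0.225, 0.586 and 0.103 against 0.317, 1.10 and 0.314, from 1 to 20 UMIs, and were higher in the Cre-positive library of all 3 pairs as well. The genotype difference of blood endothelial-like cells in Nqo1, set against that of these lymphocytes in 1 model, was -0.24 (SE 0.56). Nqo1 had too few UMIs in these lymphocytes to be tested there alone and entered that model through the endothelial cells. The term therefore cannot decide whether the classes differ. The part of free RNA was not tested.

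**Figure D3:**
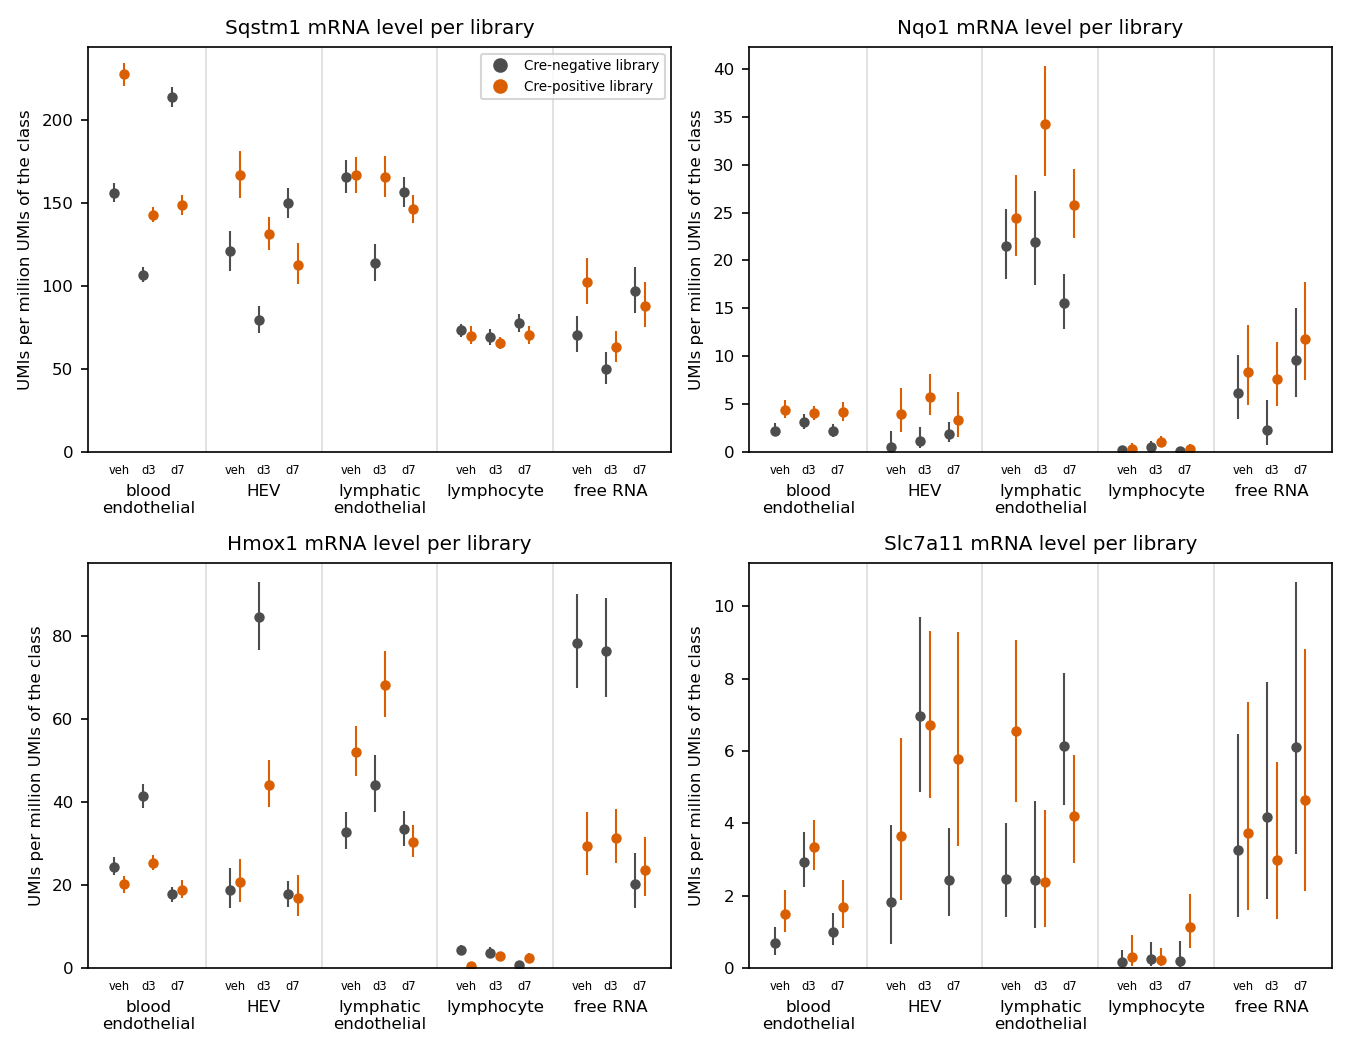
Sqstm1, Nqo1, Hmox1 and Slc7a11 in CPM (y axis) in each CD31 library for blood endothelial-, HEV-, lymphatic endothelial- and lymphocyte-like cells and free RNA, grey for Cre-negative and orange for Cre-positive, with bars of 95% Poisson counting intervals. Nqo1 is above the free RNA level in lymphatic endothelial-like cells, and Hmox1 is highest among the HEV-like values on day 3 (84.5 and 44.2).

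Among the remaining targets, Srxn1 (chr2:152105516-152111376, plus strand), the sulfiredoxin that restores oxidised peroxiredoxins, was 3.65, 3.19 and 2.99 in the Cre-negative and 4.25, 7.47 and 4.77 in the Cre-positive libraries of HEV-like cells. The groups did not overlap, on 12 to 40 UMIs a library, and the fitted difference was 0.72 (SE 0.33, adjusted p = 1.00). Free RNA held 3.69, 4.64 and 3.56 Srxn1 CPM in the Cre-negative and 5.60, 4.99 and 5.67 in the Cre-positive libraries, higher in the Cre-positive library of each pair and above the HEV-like level in 5 of 6 libraries. Lymphocyte-like cells of the same libraries, at 0.394, 0.167 and 0.103 against 0.423, 0.994 and 0.838 from 1 to 18 UMIs, were higher in each pair as well. The part of free RNA was not tested. In blood endothelial-like cells it was 5.40, 5.19 and 3.86 against 4.84, 7.15 and 6.88, which overlap (0.39, SE 0.21).

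Slc7a11 (chr3:49892526-50443614, minus strand), the cystine importer that feeds glutathione synthesis, was 0.687, 2.93 and 1.01 against 1.51, 3.36 and 1.69 in blood endothelial-like cells. The Cre-positive library was higher in each pair, while the spread between treatments made the groups overlap (0.63, SE 0.27, adjusted p = 1.00). Free RNA held 3.28, 4.17 and 6.10 against 3.73, 3.00 and 4.64 Slc7a11 CPM, above the blood endothelial-like level in 5 of 6 libraries and higher in the Cre-positive library at vehicle only; its part was not tested. Gclc (chr9:77754535-77794485, plus strand) and Gclm (chr3:122245557-122270732, plus strand), the catalytic and modifier subunits of glutamate-cysteine ligase, differed by 0.05 (SE 0.08) and 0.02 (SE 0.11). Txnrd1 (chr10:82833951-82897712, plus strand), the thioredoxin reductase of the cytosol, differed by 0.05 (SE 0.08). These 3 genes were measured with 4701 to 6276 UMIs each, and their groups overlapped.

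Hmox1 (chr8:75093621-75100589, plus strand), the haem oxygenase, lay in the other direction in blood endothelial-like cells. It was 24.5, 41.4 and 17.8 in the Cre-negative and 20.2, 25.4 and 19.0 in the Cre-positive libraries, with a fitted difference of -0.30 (SE 0.14, adjusted p = 1.00). Free RNA held 78.3, 76.5 and 20.3 against 29.4, 31.3 and 23.7 Hmox1 CPM, which differed in the same direction in each pair and lay above the blood endothelial-like level in all 6 libraries; its part was not tested. In lymphatic endothelial-like cells it was 32.9, 44.1 and 33.5 against 52.0, 68.1 and 30.5 (0.43, SE 0.21, adjusted p = 1.00). Neither passed the test. The sum of 10 myeloid markers in those lymphatic cells was 81.9, 205 and 86.9 against 372, 121 and 205, so at vehicle it was higher beside the higher Hmox1 and on day 3 lower. The share of this signal in lymphatic Hmox1 was not tested.

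Leukocytes gave no called member either. In T cell-like cells of the CD45 libraries 7 members were tested and edgeR called 0 (0.00793% of genes called; 0 members unadjusted; DESeq2 0). In B cell-like cells it was 0 of 7 (0.0%; 0 unadjusted; DESeq2 0), in lymphocyte-like cells of the CD31 libraries 0 of 7 (0.0%; 0 unadjusted; DESeq2 0) and in myeloid-like cells 0 of 8 (0.0%; 1 unadjusted; DESeq2 0). The myeloid exception at the unadjusted level was Nfe2l2, with 217, 187 and 216 in the Cre-negative and 317, 380 and 231 in the Cre-positive libraries (0.46, SE 0.19, adjusted p = 0.700). Its groups did not overlap, and 623 of all 8956 genes reached that unadjusted level in the myeloid-like fit. T cell-like Gclc was 42.8, 40.0 and 45.2 against 48.2, 53.4 and 53.5 (0.18, SE 0.09, adjusted p = 0.409). Free RNA of the CD45 libraries was higher in the Cre-positive library of each pair for both genes. It held 50.2, 46.6 and 42.2 against 52.7, 54.1 and 83.3 Nfe2l2 CPM and 20.4, 18.9 and 12.0 against 33.7, 24.7 and 41.3 Gclc CPM, each below the class level of its library. Its part was not tested.

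The fitted stromal class and capillaries were no different in this respect. Unnamed clusters of the CD45 libraries, such as 3528 cells led by Cxcl12 and 1573 led by Ccl19, were not fitted. Fibroblast-like cells, found in the CD45 libraries, gave 0 of 10 members (0.0%; 0 unadjusted; DESeq2 0) and capillary-like cells 0 of 9 (0.0%; 0 unadjusted; DESeq2 0).

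The direct test of a difference between endothelial cells and leukocytes also called 0 of 10 members. Only 7 of these had enough UMIs to be tested in lymphocyte-like cells of the CD31 libraries alone. The others, Nqo1 and Srxn1 among them, entered through the endothelial cells, so their terms cannot decide the question. With the library as a block, against lymphocyte-like cells of the same libraries, the genotype by class term of Sqstm1 was 0.27 (SE 0.24), and 0.0% of 15770 genes passed (0 members unadjusted; DESeq2 0). With the combination of genotype and treatment as the block, against T and B cell-like cells of the CD45 libraries, it was 0.20 (SE 0.23), with 0.0% of 16143 genes (0 unadjusted; DESeq2 0). The Nqo1 term there was 0.38 (SE 0.47), but these lymphocytes held 57 Nqo1 UMIs in all, too few for the term to decide the question. The intervals of the Sqstm1 terms are wide: neither an endothelial-only difference of log2 0.5 nor its absence is shown for Sqstm1.

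Genes of the same pathway outside the group were counted from lists named for NRF2 targets, NRF2 partners, autophagy receptors, haem and iron handling, and the ATF4 arm of the stress response. Of 24 other NRF2 targets, 23 were tested in blood endothelial-like cells and 0 were called; 15 lay above 0, and their median was 0.07 beside -0.01 for all genes. In HEV-like cells 19 were tested, 1 was called (beside 0.0266% of all genes) and 17 lay above 0, with a median of 0.14 beside 0.01. In lymphatic endothelial-like cells 21 were tested, 0 were called and 10 lay above 0, with a median of -0.04 beside -0.01. Listed genes share libraries and free RNA, so the counts above 0 are a description, and a common rise was not tested.

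The called gene was Ephx1, the microsomal epoxide hydrolase. In HEV-like cells it was 3.34, 1.99 and 2.17 CPM in the Cre-negative vehicle, day 3 and day 7 libraries and 20.1, 12.5 and 15.3 in the Cre-positive ones. The lowest Cre-positive library stood well above the highest Cre-negative one, and the fitted difference was 2.64 (SE 0.24, adjusted p = 0.0197). It passed in 9 of 15 alternative settings (adjusted p 1.49e-17 to 0.135). It was lost without the Cre-negative vehicle (adjusted p = 0.125), the Cre-positive vehicle (0.135) or the Cre-positive day 3 library (0.0807), and with genotype as the model's only term (0.0980). It was also lost in cells with a Y-linked UMI, at 2.18 (adjusted p = 0.0789), and after 10% free RNA was subtracted, at 4.97 (adjusted p = 0.0515), which were the lowest and highest differences of the 15.

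Ephx1 in blood endothelial-like cells was 28.7, 24.4 and 22.7 against 59.1, 36.3 and 61.3 (1.02, SE 0.15, adjusted p = 0.701; called in 3 of 17 alternatives). Within that class capillary-like cells had 34.4, 46.5 and 57.7 against 76.9, 59.8 and 72.8. Arterial-like cells had 92.0, 68.8 and 117 against 159, 72.9 and 139, with overlapping groups. On day 7 HEV-like cells, low in Ephx1, held 7364116 of the 21748078 class UMIs in the Cre-negative library. In the Cre-positive one they held 2934815 of 16568944. The part of this mix in the blood endothelial-like difference was not tested. Lymphatic endothelial-like cells had 47.5, 29.8 and 39.0 against 62.2, 53.6 and 74.9. Lymphocyte-like cells of the same libraries had 32.4, 18.4 and 34.6 against 31.4, 14.3 and 35.2, with overlapping groups. Free RNA of the CD31 libraries held 26.6, 13.0 and 33.6 against 40.1, 21.3 and 54.7, above the HEV-like level of the same library throughout and higher in the Cre-positive library of each pair. Its part in the HEV-like difference was not tested.

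The other named genes, of at least 20 CPM and with a steady direction, moved less. Me1, the malic enzyme that supplies NADPH, differed by 0.29 (SE 0.12) in blood endothelial-like cells and Ftl1, the ferritin light chain, by 0.16 (SE 0.11), both with adjusted p = 1.00. Cul3, the scaffold of the KEAP1 ligase, differed by 0.10, Slc3a2, the partner chain of Slc7a11, by -0.08, and the autophagy receptor Tax1bp1 by -0.03. In HEV-like cells Btrc, the adaptor of another ligase for NRF2, differed by -0.27 (SE 0.13), Ftl1 by 0.22 (SE 0.13) and the exporter Abcc1 by -0.21 (SE 0.13). Blvrb, a biliverdin reductase, differed by 0.15, the autophagy receptor Nbr1 by -0.13, the kinase Tbk1 by 0.09 and the peroxiredoxin Prdx6 by 0.04, and each of these 7 had an adjusted p of 1.00. Of the 6 autophagy receptors besides p62, 0 were called in the 3 endothelial classes, with medians of -0.02, 0.02 and 0.09 in blood, HEV-like and lymphatic cells.

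After oxazolone Hmox1 rose in HEV-like cells. It was 18.8 and 20.7 in the Cre-negative and Cre-positive vehicle libraries, 84.5 and 44.2 on day 3, and 17.8 and 17.0 on day 7. Both day 3 libraries stood above the other 4, the Cre-negative one higher (log2 -0.93 for the pair, counting interval -1.17 to -0.70). The fitted rise from vehicle to day 3 was 1.63 (SE 0.25, adjusted p = 0.0491), and it was the only called member of 10, beside 0.559% of 11271 genes. It passed in 7 of 13 alternatives (adjusted p 1.65e-13 to 0.232), DESeq2 gave no adjusted p, and without the Cre-negative day 3 library it was 1.17 (adjusted p = 0.232).

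The sum of 10 myeloid markers in HEV-like cells was 28.0 and 24.3 at vehicle, 4.98 and 23.9 on day 3, and 8.42 and 19.4 on day 7. It was lowest in the library with the most Hmox1. On day 3, 7 of the 10 markers were above 0 in the Cre-negative library (Csf1r, Fcgr1 and Itgam were at 0) and 8 of 10 in the Cre-positive one (Fcgr1 and Itgam were at 0). In the Cre-positive libraries the sum was nearly the same at vehicle and on day 3. The part of this signal in HEV-like Hmox1 was not tested. Free RNA held 78.3 and 29.4 Hmox1 CPM at vehicle, 76.5 and 31.3 on day 3, and 20.3 and 23.7 on day 7. The HEV-like level thus lay under free RNA at vehicle and above it on day 3.

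Other members of HEV-like cells were higher on day 3 without passing the test. Slc7a11 was 1.82 and 3.65 at vehicle and 6.97 and 6.72 on day 3 (1.34, SE 0.45, adjusted p = 0.148). Gclm was 23.7 and 30.7 at vehicle and 40.4 and 44.4 on day 3 (0.63, SE 0.16, adjusted p = 0.0961). The members' median was 0.40 beside -0.00 for all genes. All 6 autophagy receptors besides p62 lay under 0 with a median of -0.40, 0 called and 4 at an unadjusted p below 0.05, a level that 2404 of all 11271 genes reached in this fit.

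In blood endothelial-like cells as a whole edgeR called 0 of 10 members on day 3 (0.0% of genes; 3 members unadjusted, beside 3570 of 14627 genes; DESeq2 0). Over all genes DESeq2 called 823 here, so the 0.0% depended on the method. Slc7a11 was 0.687 and 1.51 at vehicle and 2.93 and 3.36 on day 3 (1.64, SE 0.33, adjusted p = 0.0804). Hmox1 differed by 0.62 (SE 0.17, adjusted p = 0.119), and Sqstm1 by -0.55 (SE 0.29). Shares of 2 clusters moved with day 3. A cycling cluster held 2.31% and 0.685% of blood endothelial-like cells at vehicle and 7.20% and 10.5% on day 3, and the immediate-early cluster went from 8.05% and 19.1% to 2.27% and 6.45%. Without the cycling cluster the differences were 1.39 for Slc7a11, 0.73 for Hmox1 and -0.50 for Sqstm1, and without the immediate-early cluster 1.58, 0.57 and -0.29. Lymphatic endothelial-like cells gave 0 of 10 (0.0%; 0 unadjusted; DESeq2 0) and capillary-like cells 0 of 9 (0.0%; 1 unadjusted; DESeq2 0). The unadjusted capillary member was Hmox1, in the other direction, at -0.36 (SE 0.14).

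**Figure D4:**
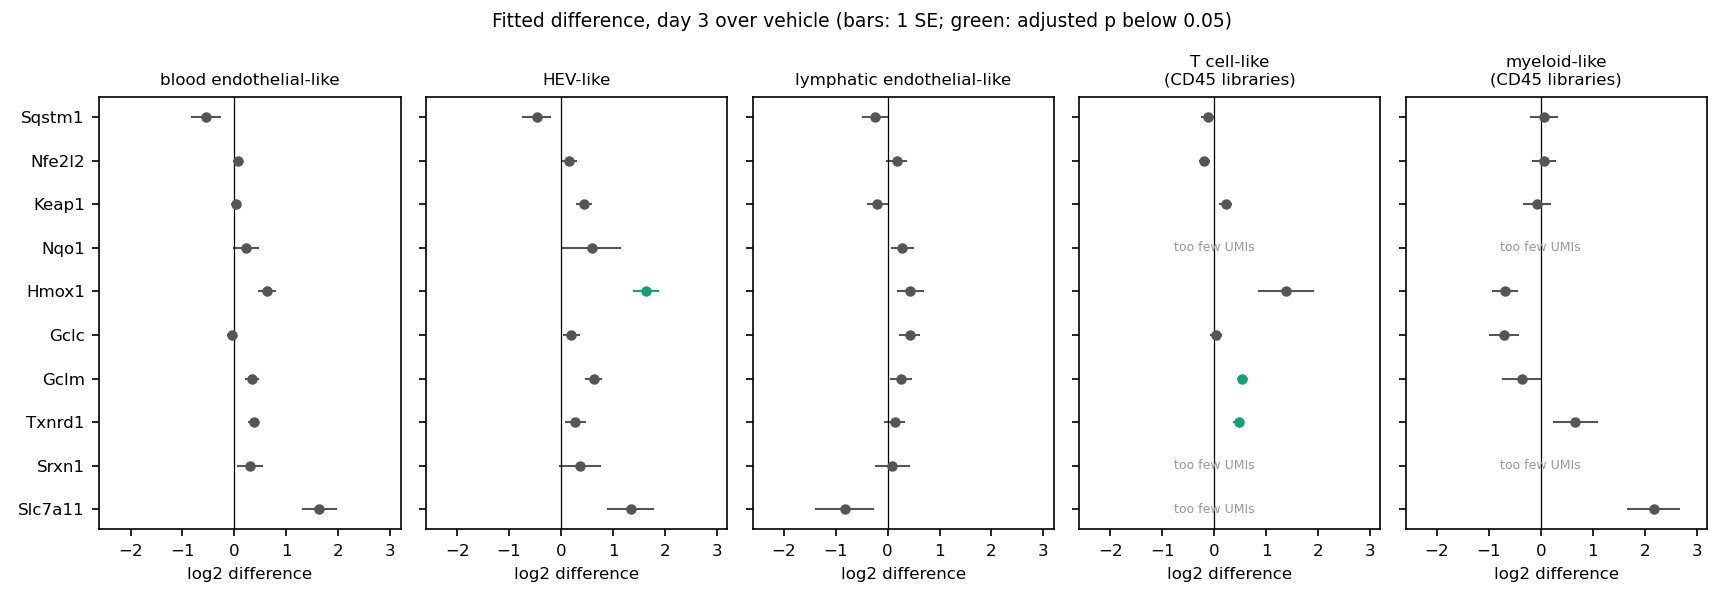
Fitted log2 difference between day 3 after oxazolone and vehicle (x axis, points with bars of 1 standard error) for each member in blood endothelial-, HEV-, lymphatic endothelial-, T and myeloid-like cells; green marks an adjusted p below 0.05. Green points are Hmox1 in HEV-like cells (1.63) and Gclm (0.54) and Txnrd1 (0.47) in T cell-like cells.

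In T cell-like cells of the CD45 libraries 2 of 7 members were called on day 3, beside 21.5% of 12603 genes, so the share of members was near the background. Gclm was 28.6 and 31.0 at vehicle and 42.8 and 43.3 on day 3 (0.54, SE 0.11, adjusted p = 0.0108). Txnrd1 was 33.4 and 34.1 at vehicle and 47.5 and 45.3 on day 3 (0.47, SE 0.11, adjusted p = 0.0241). A cluster of cycling T cells moved with them: it held 3.82% and 2.06% of T cell-like cells at vehicle, 16.4% and 16.7% on day 3, and 1.67% and 3.96% on day 7. Without that cluster Gclm was -0.27 (adjusted p = 0.844) and Txnrd1 -0.30 (adjusted p = 0.800), both below 0.

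Listed genes called in T cell-like cells on day 3 stood against the same 21.5% of all genes. Of 18 other NRF2 targets tested, 6 rose: Txn1, the cytosolic thioredoxin (1.40, SE 0.17), the peroxiredoxin Prdx1 (1.13, SE 0.13), glutathione reductase Gsr (0.82, SE 0.14), and Tkt (1.03), Pgd (0.82) and Taldo1 (0.39) of the pentose phosphate pathway. The targets Gsta4 (-1.26) and Ephx1 (-0.76) fell. Of 9 genes of the ATF4 arm 4 rose, asparagine synthetase Asns (2.22, SE 0.35) and Psat1 (1.44), Phgdh (1.27) and Shmt2 (0.99) of serine and glycine synthesis, and Ddit3 fell (-0.56). The biliverdin reductase Blvra (0.69) and Rbx1 (0.46), a subunit of cullin ligases, rose, whereas the autophagy receptor Calcoco1 (-0.85) and the NRF2 antagonist Bach2 (-0.62) fell.

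Without the cycling cluster edgeR called 0 of 12167 genes on day 3 (716 at an unadjusted p below 0.05; DESeq2 was not run on that subset). Of the 17 listed genes 16 were still tested, 0 were called and 0 had an unadjusted p below 0.05. Prdx1 was then 0.20 (SE 0.09), Txn1 0.08 (SE 0.10) and Phgdh 0.09 (SE 0.10), while Bach2, at 0.06, and Pgd, at -0.06, had the opposite sign.

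The remaining fitted leukocyte classes and fibroblast-like cells gave 0 called members on day 3. Lymphocyte-like cells of the CD31 libraries had 0 of 7 (0.0%; 2 unadjusted; DESeq2 0), B cell-like cells 0 of 7 (0.0%; 0 unadjusted; DESeq2 0), myeloid-like cells 0 of 8 (0.0%; 3 unadjusted; DESeq2 0) and fibroblast-like cells 0 of 10 (0.0%; 3 unadjusted; DESeq2 0). Over all genes the unadjusted counts of these classes were 2303 of 12744, 531 of 11927, 694 of 8956 and 2094 of 12247. DESeq2 called 366, 24, 27 and 233 of all genes in the same classes, where edgeR called 0. Myeloid-like Slc7a11 was 12.9 and 4.49 at vehicle and 37.9 and 39.0 on day 3 (2.18, SE 0.51, adjusted p = 0.314). Free RNA of the CD45 libraries held 33.7 and 28.8 Slc7a11 CPM at vehicle and 93.2 and 59.6 on day 3, above the myeloid-like level in each of these libraries, and its part was not tested. Myeloid-like Hmox1 was 237 and 314 at vehicle and 146 and 189 on day 3 (-0.69, SE 0.24).

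On day 7 edgeR called 0 members in all 9 classes fitted, beside 0.0% of genes in each. DESeq2 called 0 members too, and the unadjusted count was 1, capillary-like Hmox1 (-0.50, SE 0.15, adjusted p = 1.00). In HEV-like cells the day 7 differences from vehicle ran from -0.18 to 0.52.

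Levels across cell types are given as medians over the libraries of a fraction. Hmox1 was highest in myeloid-like cells, 341 (251 to 492) in the CD31 and 213 (146 to 314) in the CD45 libraries, which overlap. Lymphatic endothelial-like cells, at 38.8 (30.5 to 68.1), lay clear below both. T and B cell-like cells of the 2 fractions lay between 1.83 and 3.17 CPM at the median. Nqo1 was highest in venous-like cells at 33.8 (8.24 to 45.8, from 51 UMIs in all), a range that covers the lymphatic endothelial-like level of 23.1 (15.5 to 34.2). Capillary-like cells, at 4.54 (3.51 to 7.25), lay clear of the lymphatic cells.

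Slc7a11 and Nfe2l2 were both highest in neutrophil-like cells, Slc7a11 at 750 (330 to 974) and Nfe2l2 at 669 (165 to 854) in the CD45 libraries, from 237 and 205 UMIs. Gclm and Keap1 led in arterial-like cells, Gclm at 74.8 (70.4 to 79.1) ahead of capillary-like cells at 56.3 (49.1 to 64.1) without overlap, and Keap1 at 58.6 (51.5 to 67.7) with overlap. Gclc was highest in dendritic-like cells at 130 (78.8 to 229), and Srxn1 in fibroblast-like cells at 16.1 (13.5 to 22.6). Sqstm1 was 257 (206 to 321) in NK cell-like and 237 (173 to 346) in dendritic-like cells, which overlap, and 65.5 (62.6 to 74.1) in T cell-like cells caught in CD31 libraries. An unnamed group of CD31 clusters had a higher median, 276 (105 to 507), with a range that covers both of theirs. Its larger cluster, of 2566 cells, had a median of 1350 UMIs per cell, and 75.3% of its cells came from 1 library.

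**Figure D5:**
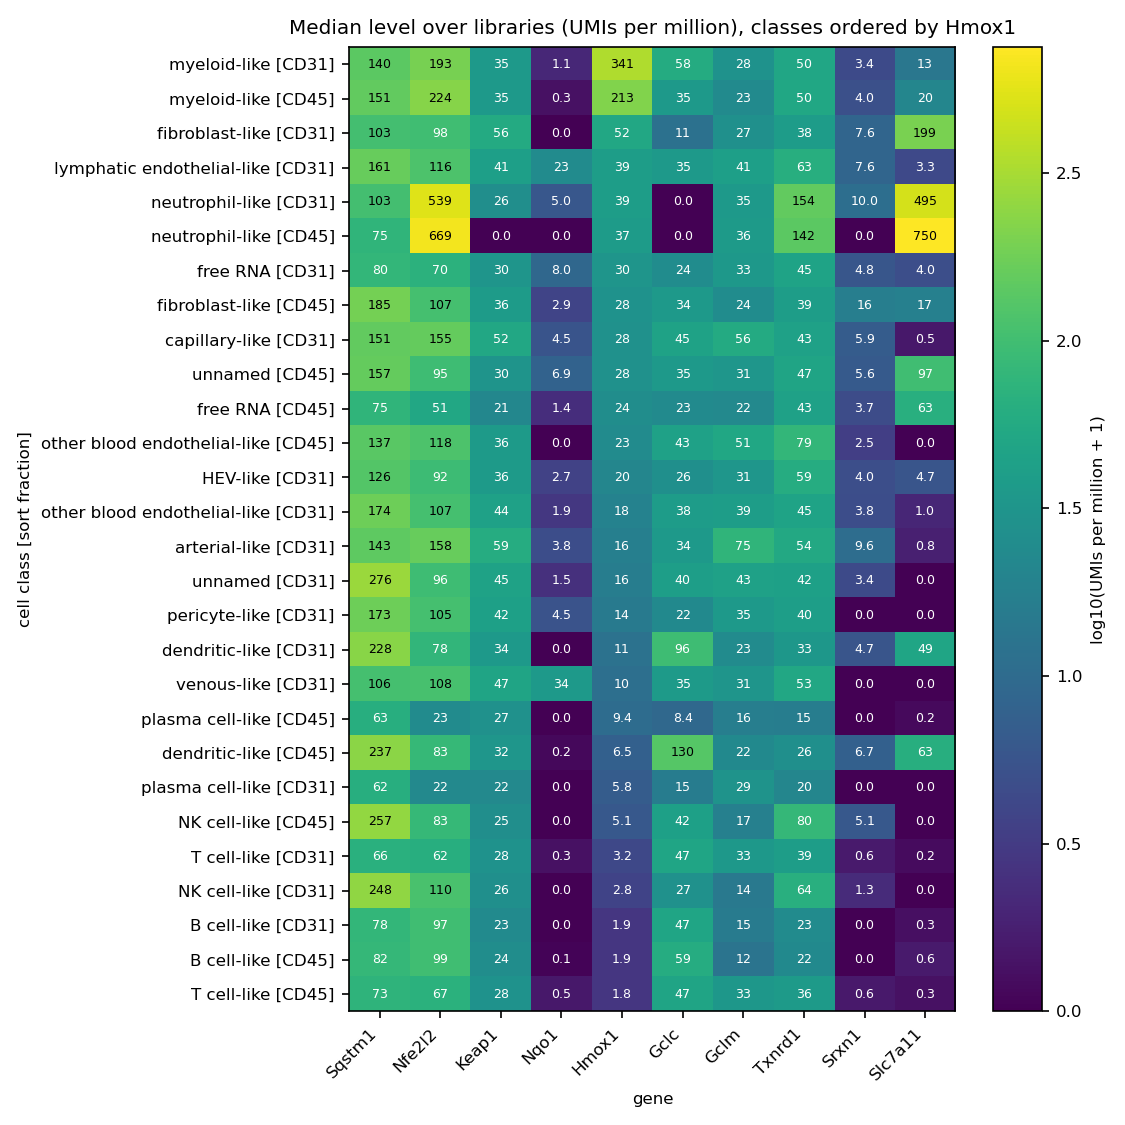
Median level over libraries of each member (columns) in each cell class and in free RNA (rows), as CPM, with rows ordered by Hmox1. Myeloid-like cells are at the Hmox1 end (341 and 213), and the highest Slc7a11 and Nfe2l2 are in neutrophil-like cells (750 and 669).

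The genes whose pattern over 24 cell classes was most like a member's were found by Pearson correlation of log levels. For Hmox1 they were Ninj1 (r = 0.89), Bach1 (0.89), which encodes the haem-binding repressor of Hmox1, and Nr1h3 (0.85). For Nqo1 they were Tmem98, Foxc1 and Nynrin (each 0.86), for Slc7a11 F630028O10Rik (0.91), Cstb (0.90) and Gabarap (0.89), and for Sqstm1 B230118H07Rik (0.82), Lrrfip2 (0.82) and Lrrk1 (0.80). Classes share libraries and free RNA, and these values are a description.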

How the data were processed

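The deposited files hold UMI counts per gene and droplet barcode, raw counts that were not normalized, per the file headers. Per the labels' protocols the libraries were made with 10x Genomics 3′ chemistry, version 2. The submitters' processing notes name Cell Ranger 7.0.1 and mm10, while the matrix headers name Cell Ranger 4; annotation and strand handling are not given in the sources used here.

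A barcode was kept as a cell from 1000 UMIs and 500 genes upward, if mitochondrial UMIs made up 10% or less. The highest-scoring barcodes by doublet score were removed, 0.8% per 1000 barcodes, or 4.78 to 9.31% of a library, since the score's own threshold marked very few in some libraries. What was removed from 2 CD31 libraries was shallower, by median UMIs, than what stayed. Cells were clustered per fraction (scanpy 1.11.5, 2000 variable genes without members, listed pathway genes, Atg12 and sex genes) and named from markers. Class sums of each library were fitted in edgeR 4.0.16 (TMM scaling, low-count filter); standard errors are the log2 difference over the square root of F. DESeq2 1.42.0 was an alternative, and so was a fit after a set 10% of free RNA was subtracted from each class sum. Where the part of free RNA is called not tested, nothing beyond that fit was made. Both p and n rest on single libraries. The p-values are set against the spread left after the model's terms, with information shared over genes, and not against replicate libraries. The code was tested on simulated data: 4 false calls in 14673 genes.

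Members, lists and tests were chosen with earlier results of these data known. Named were all members, listed genes past the threshold, and, for genotype, listed genes of at least 20 CPM with the same sign at all 3 time points in blood endothelial- and HEV-like cells, up to 8 per class.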

Additional observations from a re-analysis of the deposited data

Results flagged for a closer look

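These log2 genotype differences pointed in opposite directions at different time points, each beyond its counting interval. Every one sets 1 library against 1, so the difference between time points was not tested.

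Sqstm1 in blood endothelial-like cells differed between its vehicle and day 7 pairs by 1.0641 and between day 3 and day 7 by 0.9458, and the gap between the same pairs in HEV-like cells was 0.8696 and 1.1277. In capillary-like cells the day 3 and day 7 pairs were 1.1091 apart. For the other members of blood endothelial-like cells the gaps were smaller, 0.3187 for Keap1 between day 7 and day 3 and 0.5898 for Gclm between day 7 and vehicle.

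Leukocytes showed such gaps as well. In lymphocyte-like cells of the CD31 libraries Nfe2l2 gave 0.6801 between vehicle and day 7 and 0.5187 between day 3 and day 7, Gclm gave 0.5752 between day 3 and day 7, and Hmox1, at very few UMIs, 4.8663 between day 7 and vehicle. In the CD45 libraries T cell-like Hmox1 gave 3.3904 between day 7 and vehicle. B cell-like cells gave 0.4084 for Sqstm1 between day 3 and day 7 and 0.6578 for Gclc between day 3 and vehicle. Myeloid-like cells gave 0.9477 and 0.9131 for Hmox1 (vehicle and day 3, each against day 7) and 2.0921 for Txnrd1 between day 3 and day 7. Fibroblast-like Slc7a11 gave 1.6544 between vehicle and day 7.

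A reporter transcript named mRFP, which no comparison used, was listed for 4 CD31 libraries. It had 313 UMIs in cells of the Cre-positive vehicle library, 740 on day 3 and 286 on day 7, and 0 in the Cre-negative day 7 library.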

How the results depend on the processing

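Under other settings 395 counts of called members lay within 1.5 times the reported count and 32 did not. Most reported counts were 0, so most of the 395 set 0 against 0. Of the counts over all genes, 242 stayed within that range and 185 did not. Of 3715 log2 differences, 25 came past the threshold, 18 lost it and 17 reversed, that is, changed sign by more than 2 standard errors or with either unadjusted p below 0.05. The other 3655 kept their side of the threshold without such a reversal, although 411 of the 3715 changed sign; where no other cause is named, the cause was not tested.

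Without a filter on low counts, which tests more genes, 1 member was called on day 3 in blood endothelial-, lymphocyte- (CD31) and myeloid-like cells, 1 by genotype in HEV-like cells (Nqo1), 3 on day 3 in HEV-like and 4 in T cell-like cells. The HEV-like day 3 count was 0 with RLE scaling, with DESeq2, with at most 5% mitochondrial UMIs and with 10% free RNA subtracted. The T cell-like day 3 count was 1 with DESeq2 and with 10% free RNA subtracted, and 0 in cells with a Y-linked UMI and without the cycling cluster. Over all genes, the settings called 0 to 40 by genotype in blood endothelial-, 0 to 135 in HEV- and 0 to 77 in lymphatic endothelial-like cells (reported: 1, 3 and 1), and on day 3 1 to 1251 in HEV- and 0 to 3417 in T cell-like cells (reported: 63 and 2704).

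Leaving out each library in turn changed the day 3 counts of called members in blood endothelial-, lymphocyte- (CD31), T, HEV-, myeloid- and fibroblast-like cells. It changed the fibroblast-like count on day 7 as well. Each such fit left 1 library of a treatment, which was assumed to vary like the others. In blood endothelial-, lymphocyte- (CD31) and fibroblast-like cells more of all genes were called in some of these fits too. The changes are therefore no result about the members.

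Day 7 Sqstm1 ran from -0.5847 to 0.5229 in blood endothelial-, from -0.6593 to 0.4848 in HEV- and from -0.4085 to 0.5355 in capillary-like cells, with the Cre-negative or the Cre-positive day 7 library left out at the ends. Lymphocyte-like (CD31) day 7 Hmox1 ran from -2.2012 to 1.8684. Its genotype by class term ran from -0.766 to 0.7288 and was -2.2903 with free RNA subtracted.

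Without the cycling cluster the T cell-like day 3 differences were 0.1175 for Nfe2l2, -0.2724 for Gclm and -0.2974 for Txnrd1. With only cells holding a Y-linked UMI, capillary-like Gclc was 0.1882 by genotype and Gclm -0.3445 on day 3, myeloid-like Hmox1 was 0.1288 on day 7 and fibroblast-like Gclm -0.4585 on day 7. With doublet removal doubled, myeloid-like Nfe2l2 was -0.4653 on day 3, and on day 7 Slc7a11 was -6.0592 and Sqstm1 -0.3611.

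No pairing by mouse was possible because each combination of genotype and treatment within a class is 1 library, and these share only the replicate number 1. The genotype fit compares libraries of the same treatment through its treatment term. The fits of endothelial cells against leukocytes join sums of 1 library, or of both fractions of 1 combination, and had that library or combination as a block; they were not run without it. The CD31 fibroblast-like class (80 cells, 0 in the Cre-negative day 7 library) was not fitted. Leaving out the immediate-early or the cycling cluster was chosen after seeing the data. Genes at a few CPM, such as Nqo1 and Slc7a11 outside their main classes, are limited by depth.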

Other observations

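Within the myeloid-like class, Hmox1 was highest in the cluster led by Ccl8, Cd209b, Timd4 and Marco, at 981 CPM pooled over the CD31 libraries and 591 over the CD45 libraries. Slc7a11 was 284 in an unnamed CD45 cluster led by Ccl19, Saa3 and Serpina3n. These values enter no comparison between genotypes.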
